A study of Mus musculus with 2 samples.

Results

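The cells described here are natural killer (NK) cells that carried mRNA tags of both Hspa1a, an inducible HSP70 chaperone, and Fos, an immediate early transcription factor. A cell was a member if it held at least 2 unique molecular identifiers (UMIs, which count captured mRNA molecules) of Hspa1a and at least 1 of Fos. It also had to show fewer than 3 of the genes Nr4a1, Nfkbid, Nfkbiz and Csrnp1, fewer than 2 of Cx3cr1, S1pr5 and Zeb2, fewer than 2 UMIs of Cd3d and Cd3e together, and no UMI of Tmem176a or Tmem176b. These exclusions set aside cells rich in Nr4a1 and NF-κB genes, terminally mature NK cells, cells with T cell receptor complex mRNA and cells with ILC-associated mRNA. Cells were kept if they had 500 or more genes detected and no more than 10% of UMIs from mitochondrial genes. Of the 6622 kept, 950 were members. They were 184 of 3067 cells of the KO library and 766 of 3555 cells of the WT library.

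The cells came from subcutaneous RMA-S tumors, mouse lymphoma cells that show little MHC class I, 2 weeks after injection. The KO library was from NK-Hif1a-/- mice, in which Hif1a, the oxygen-regulated subunit of the transcription factor HIF-1, is deleted in NK cells, and the WT library was from wild-type mice. In both, tumor-infiltrating cells negative for CD3ε and positive for NK1.1 had been sorted and made into 10x Chromium libraries that tag the 3′ end of transcripts. The labels name neither the Cre driver, nor the age, sex or number of mice, nor how the tumors were dissociated. With 1 library of each genotype no test was possible between them, and all intervals below are 95% intervals for counting error only, which take UMIs and cells as independent. The libraries held 13407906 UMIs over 3110 barcodes in KO and 19553440 UMIs over 3574 barcodes in WT. They shared 19 barcodes, which 2 members of each library carried.

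Heat shock factor 1 (HSF1) is held inactive by chaperones and freed when unfolded proteins engage them. It then binds inverted repeats of nGAAn in the promoters of HSP70, HSP40, HSP90 and small heat shock protein genes. Fos and Jun pair as the transcription factor AP-1 and belong to the immediate early genes, whose mRNA appears within minutes of a stimulus and decays fast. In lymphocytes these genes follow receptor and cytokine signals, and the same genes are known to be induced when tissue is taken apart into single cells.

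The promoters of 4 genes described below are shown because they hold inverted nGAAn pairs. Each runs from 250 bases before to 50 bases after the RefSeq start site on GRCm38.p6. Capitals mark a pair, searched as GAANNTTC or TTCNNGAA, both of which read the same on either strand.
Hspa1a, chr17:34972107-34972406, minus strand: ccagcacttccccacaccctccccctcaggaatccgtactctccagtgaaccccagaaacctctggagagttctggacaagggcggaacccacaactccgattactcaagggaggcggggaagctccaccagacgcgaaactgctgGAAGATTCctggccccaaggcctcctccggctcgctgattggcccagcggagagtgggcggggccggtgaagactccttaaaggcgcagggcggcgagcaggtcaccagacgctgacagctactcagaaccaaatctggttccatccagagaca
Hspa1b, chr17:34959189-34959488, minus strand: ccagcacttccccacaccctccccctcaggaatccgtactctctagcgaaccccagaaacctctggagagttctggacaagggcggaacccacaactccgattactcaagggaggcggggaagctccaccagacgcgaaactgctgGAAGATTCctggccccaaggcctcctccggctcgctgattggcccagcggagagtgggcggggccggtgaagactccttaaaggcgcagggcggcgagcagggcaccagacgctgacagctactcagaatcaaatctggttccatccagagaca
Hspb1, chr5:135887669-135887968, plus strand: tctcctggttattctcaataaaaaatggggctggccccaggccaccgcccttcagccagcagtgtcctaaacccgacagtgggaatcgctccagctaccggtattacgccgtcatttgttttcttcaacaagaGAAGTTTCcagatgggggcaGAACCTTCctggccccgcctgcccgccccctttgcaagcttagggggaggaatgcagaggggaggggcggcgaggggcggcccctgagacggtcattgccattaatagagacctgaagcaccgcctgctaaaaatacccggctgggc
Jun, chr4:95052173-95052472, minus strand: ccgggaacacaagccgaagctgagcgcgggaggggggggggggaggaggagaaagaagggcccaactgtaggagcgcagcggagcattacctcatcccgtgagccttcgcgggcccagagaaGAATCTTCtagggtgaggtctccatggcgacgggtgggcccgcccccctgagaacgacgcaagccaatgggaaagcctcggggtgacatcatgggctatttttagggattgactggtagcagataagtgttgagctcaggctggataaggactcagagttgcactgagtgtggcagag
Hspa1a and Hspa1b, neighbouring copies on chromosome 17, each held 1 pair, GAAGATTC, that began 104 bases before the start site. Their windows matched at 296 of 300 positions. Hspb1, the small heat shock protein HSP27, held 2 pairs, GAAGTTTC at 117 and GAACCTTC at 97 bases before the start, and Jun held GAATCTTC at 128 bases before it. The Hsph1 window held 3 pairs, TTCTCGAA that began 33 bases before the start, and TTCTGGAA and GAAAGTTC at 36 and 41 bases after it. The windows of Dnajb1, Fos, Fosb and Klf6 held neither form. Among all 32851 windows of the table, 15.1% held at least 1 pair, so a match is a description of the sequence and not a bound site. No window was found in the table for Hsp90aa1, Hsp90ab1 or Hspa8.

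Members held between 2 and 80 Hspa1a UMIs per cell in KO (median 6) and between 2 and 94 in WT (median 8.5). For Fos the range was 1 to 20 with a median of 3 in KO members, and 1 to 37 with a median of 5 in WT members. These values chose the cells and are a description. At least 10 Hspa1a UMIs were held by 61 KO and 356 WT members, so the rule joins cells just above its limit with cells far above it. Just inside, 28 KO and 155 WT members had exactly 2 Hspa1a UMIs, and just outside, 83 KO and 323 WT cells with Fos had exactly 1. A further 79 KO and 134 WT cells reached the Hspa1a limit without a Fos UMI. Members had a median of 3463.5 UMIs in the KO library and 4474.5 in the WT library.

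**Figure D1:**
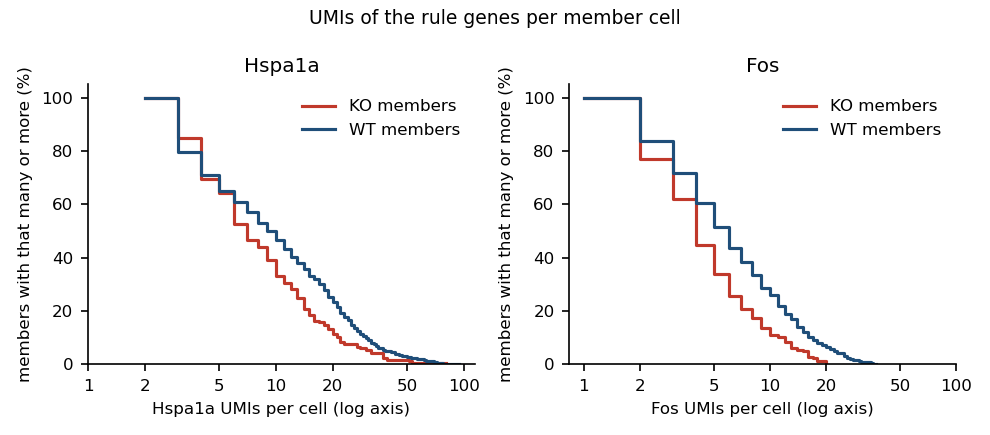
Share of member cells (%, y axis) with at least a given number of Hspa1a UMIs (left) or Fos UMIs (right), on a log x axis, for the 184 KO and 766 WT members. Both curves start at the limit of the rule, and WT members, which were sequenced more deeply, reach 94 Hspa1a and 37 Fos UMIs, against 80 and 20 in KO members.

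Members were set against the other NK cells of their library that met every exclusion but not both UMI limits, 970 in KO and 1504 in WT, called other cells below. Those had median depths of 3379 UMIs in KO and 4094.5 in WT. The median mitochondrial share was 1.14% in KO and 1.17% in WT members, against 1.18% and 1.24% in other cells. Because members were picked on UMIs of these same cells, their differences from other cells are a description with no test. Levels are UMIs summed over a set of cells per 1000000 UMIs of that set (CPM), and ratios are log2 of members over other cells after adding 1 CPM. Of 4843 genes with at least 100 UMIs over members and other cells in each library, 6 were at least 2-fold higher in members in both libraries (0.124% of genes) and 3 at least 2-fold lower in both (0.0619%). The 6 were Hspa1a and Fos, on which the rule rests, with Hspa1b, Dnajb1, Jun and Gm26802. The 3 were Nr4a3, Vegfa and Tgif1.

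**Figure D2:**
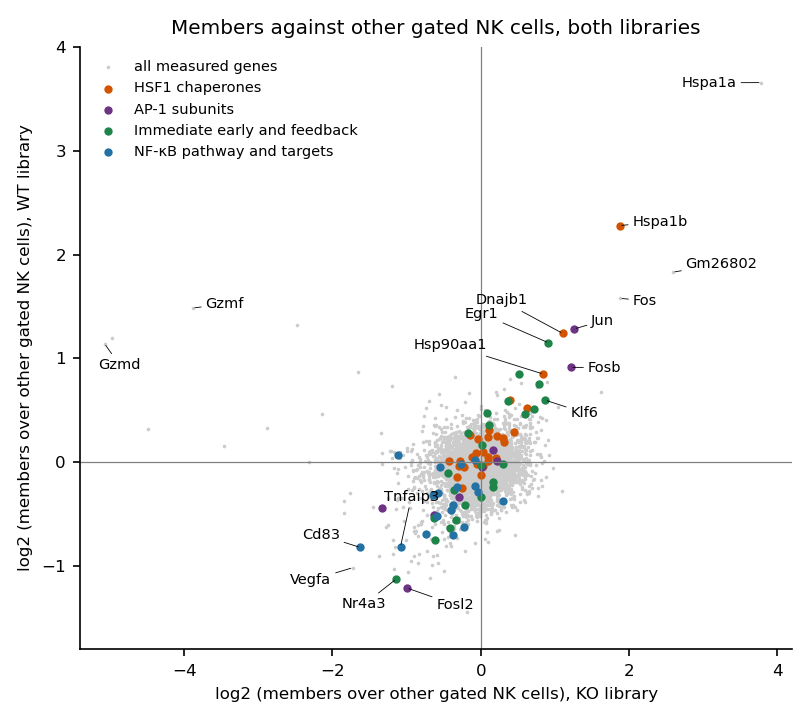
Each point is 1 of 4843 genes, placed by its log2 ratio of members over other cells in the KO library (x axis) and the WT library (y axis), with 4 gene lists in colour. Hspa1b at 1.88 and 2.28, Jun at 1.26 and 1.28 and Dnajb1 at 1.11 and 1.24 lie high on both axes, and Fosl2 at -0.99 and -1.21 lies low on both.

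A few inducible chaperones were at least 1.5-fold higher in members, and most genes of the chaperone list differed by less than that. Hspa1b, the second inducible HSP70 copy, had 258 CPM in members against 69.6 CPM in other cells of the KO library, and 241 against 48.8 CPM in the WT library. On the log2 scale the ratio was 1.88 (1.61 to 2.17) in KO and 2.28 (2.13 to 2.48) in WT. The coding sequences of Hspa1a and Hspa1b were 99.5% identical in the GENCODE transcripts and the parts after the stop codon 51.4%. How reads shared by the copies were counted is not given in the sources used here, so Hspa1b is uncertain as a measure separate from Hspa1a. Dnajb1, the HSP40 co-chaperone that hands clients to HSP70, had 596 CPM in members against 276 CPM in other cells of the KO library, and 569 against 240.0 CPM in the WT library, with ratios of 1.11 (0.94 to 1.27) in KO and 1.24 (1.15 to 1.33) in WT. Hsp90aa1, the inducible HSP90, had 1246 CPM in members against 694 CPM in other cells of the KO library, and 1067 against 592 CPM in the WT library, with ratios of 0.84 (0.73 to 0.96) in KO and 0.85 (0.79 to 0.91) in WT. Its constitutive partner Hsp90ab1 had ratios of 0.62 (0.52 to 0.73) in KO and 0.53 (0.48 to 0.57) in WT.

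Hspb1 rested on few molecules, 9 UMIs in all KO members and 198 in WT members. Its level was 12.6 CPM in members against 4.86 CPM in other cells of the KO library, and 45.8 against 10.9 CPM in the WT library. The WT ratio was 1.98 (1.69 to 2.47), and 10 cells held 55.1% of the UMIs of WT members. The KO value of 1.22 (0.041 to 2.61) was under the UMI minimum. Hsph1, the HSP110 exchange factor, had ratios of 0.39 (-0.26 to 1.03) in KO and 0.60 (0.34 to 0.89) in WT, and the KO interval includes 0.

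Of 37 genes of the chaperone list outside the rule, 4 of 28 measured in KO were at least 1.5-fold higher in members, as were 2.33% of all measured genes. In WT it was 5 of 32, and 1.16% of all. None of the list was 1.5-fold lower in either library, where 4.85% of all genes in KO and 1.42% in WT were. The list median was 0.065 in KO and 0.093 in WT, beside -0.017 and -0.016 over all measured genes, and 17 of 28 genes in KO and 24 of 32 in WT were above 0. The constitutive HSP70 Hspa8 had ratios of 0.10 in KO and 0.24 in WT, the mitochondrial chaperonin Hspd1 of -0.067 in KO and 0.092 in WT, and its partner Hspe1 of 0.11 in KO and 0.31 in WT. Hsf1 itself had 20 UMIs in KO members and 61 in WT members. The lists of the unfolded protein response, the proteasome, and NRF2 and oxidative stress were near the level of the other cells. Their medians in KO and WT were -0.14 and 0.093, -0.054 and -0.019, and -0.085 and -0.0029, in that order. Each had 0 genes 1.5-fold higher, and 1 of 17 unfolded protein response genes was 1.5-fold lower in KO. The metallothionein list differed more but rested on few genes. Its 1 gene measured in KO was at -0.77, and the median of its 2 in WT was 0.48.

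AP-1 subunits split by gene. Jun, the main partner of Fos, had 1912 CPM in members against 796 CPM in other cells of the KO library, and 1755 against 719.7 CPM in the WT library, with ratios of 1.26 (1.17 to 1.36) in KO and 1.28 (1.23 to 1.34) in WT. Fosb, a Fos paralogue, had 261 CPM in members against 112 CPM in other cells of the KO library, and 308 against 163 CPM in the WT library, with ratios of 1.22 (0.97 to 1.48) in KO and 0.91 (0.80 to 1.03) in WT. Fosl2, which encodes the Fos relative FRA2, was lower, with 174 CPM in members against 347 CPM in other cells of the KO library, and 81.6 against 190.3 CPM in the WT library and ratios of -0.99 (-1.28 to -0.73) in KO and -1.21 (-1.40 to -1.05) in WT. Junb had ratios of -0.29 in KO and -0.34 in WT, and Jund of 0.16 in KO and 0.12 in WT. Atf3, a stress-induced repressor, had 8 UMIs in KO members, and its ratios were -0.62 (-1.94 to 0.40) in KO and 0.97 (0.71 to 1.29) in WT. Of the AP-1 list outside the rule, 2 of 9 genes measured in KO were 1.5-fold higher and 3 lower. In WT 3 of 10 were higher and 1 lower. Over all measured genes the shares were 2.33% higher and 4.85% lower in KO, and 1.16% and 1.42% in WT. The list medians were 0.011 and -0.017.

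Immediate early genes were also split. Egr1, a zinc finger factor induced through serum response factor, had 107 CPM in members against 56.1 CPM in other cells of the KO library, and 66.6 against 29.4 CPM in the WT library, with ratios of 0.91 (0.53 to 1.31) in KO and 1.15 (0.92 to 1.44) in WT. Klf6, a Krüppel-like factor, had 628 CPM in members against 343 CPM in other cells of the KO library, and 644 against 425 CPM in the WT library, with ratios of 0.87 (0.71 to 1.03) in KO and 0.60 (0.52 to 0.67) in WT. Klf2, which maintains lymphocyte quiescence, had ratios of 0.72 (0.63 to 0.82) in KO and 0.51 (0.46 to 0.56) in WT. Dusp1, a MAP kinase phosphatase, had ratios of 0.59 (0.43 to 0.75) in KO and 0.47 (0.38 to 0.56) in WT. Against these, Ier2 had ratios of 0.17 in KO and -0.24 in WT, and the orphan nuclear receptor Nr4a3 was more than 2-fold lower, with 26.6 CPM in members against 59.9 CPM in other cells of the KO library, and 18.3 against 41.0 CPM in the WT library. Of 28 genes of this list outside the rule, 5 of 24 measured in KO were 1.5-fold higher and 3 lower, and 5 of 25 in WT were higher and 3 lower. Over all measured genes the shares were 2.33% higher and 4.85% lower in KO, and 1.16% and 1.42% in WT. Outside the lists, Arl4d, a small GTPase, had ratios of 0.90 (0.51 to 1.30) in KO and 0.77 (0.55 to 1.02) in WT, and Cited4, a transcriptional coactivator, of 0.76 (0.33 to 1.19) in KO and 0.72 (0.50 to 0.97) in WT.

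Gm26802, a gene model named here after its values were seen, had 191 CPM in members against 30.8 CPM in other cells of the KO library, and 239 against 66.5 CPM in the WT library, with ratios of 2.59 (2.26 to 3.00) in KO and 1.83 (1.69 to 2.01) in WT. It lies at chr7:19298260-19300770 of GRCm38 on the minus strand, 1925 bases from the annotated end of Fosb at chr7:19302696-19310051 on the same strand. In KO members it was detected in 43.9% of 98 cells with a Fosb UMI and in 17.4% of 86 cells without. In WT members it was detected in 55.2% of 520 cells with Fosb and in 17.9% of 246 without. A separate transcript and tags from a longer Fosb transcript cannot be told apart in counts per gene.

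NF-κB feedback genes and Vegfa were among the genes lower in members. Tnfaip3, which encodes the NF-κB inhibitor A20, had 247 CPM in members against 523 CPM in other cells of the KO library, and 217 against 381 CPM in the WT library, with ratios of -1.08 (-1.32 to -0.86) in KO and -0.81 (-0.92 to -0.71) in WT. Nfkbia, which encodes IκBα, had 763 CPM in members against 1271 CPM in other cells of the KO library, and 649 against 1048 CPM in the WT library, with ratios of -0.74 (-0.87 to -0.61) in KO and -0.69 (-0.76 to -0.63) in WT. Zc3h12a, an RNase that degrades cytokine mRNAs, had ratios of -1.37 (-2.06 to -0.80) in KO and -0.91 (-1.21 to -0.65) in WT. Of 20 NF-κB genes outside the rule, 18 were measured in each library, and 0 were 1.5-fold higher in either, while 6 in KO and 5 in WT were 1.5-fold lower. Over all measured genes the shares were 2.33% higher and 4.85% lower in KO, and 1.16% and 1.42% in WT. The list medians were -0.39 in KO and -0.35 in WT. Vegfa, the angiogenic factor and a HIF target, had 42.1 CPM in members against 141 CPM in other cells of the KO library, and 30.7 against 63.2 CPM in the WT library, with ratios of -1.72 (-2.33 to -1.22) in KO and -1.02 (-1.33 to -0.76) in WT. Tgif1, a repressor in TGF-β signalling, had ratios of -1.18 (-1.56 to -0.83) in KO and -1.03 (-1.23 to -0.85) in WT, and the chemokine receptor Cxcr4 of -0.89 in KO and -0.90 in WT.

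The exclusion on Nr4a1, Nfkbid, Nfkbiz and Csrnp1 applied to members and other cells alike, but within it members had less Nr4a1, 248 CPM in members against 410.0 CPM in other cells of the KO library, and 101 against 183 CPM in the WT library. Keeping only cells with none of the 4 genes detected, a choice made after seeing the data, left 44 members and 197 other cells in KO and 310 and 490 in WT. Among those, the ratio of Jun was 1.16 in KO and 1.38 in WT, that of Dnajb1 1.03 and 1.5, and that of Klf6 1.0 and 0.71. Tnfaip3 was then at -0.056 in KO and -0.76 in WT, Nfkbia at 0.14 and -0.38, and the median of the NF-κB list at -0.056 and -0.27. Cd83, an activation marker on the NF-κB list, was at -1.11 in KO and 0.74 in WT. Junb was at 0.23 and 0.085. Of the 3 genes lower in both libraries, Nr4a3 was then at -0.016 in KO and -1.06 in WT. Tgif1 was at -0.21 and -0.89, and Vegfa at -1.90 and -0.60.

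Among cells with Fos, Hspa1b, Dnajb1 and Jun were higher in cells with more than 20 Hspa1a UMIs than in cells with 2, and for Dnajb1 and Jun not every group between kept that order. Hspa1b was at 135 CPM in the 28 KO cells with exactly 2 Hspa1a UMIs and at 661 CPM in the 19 with more than 20. In WT it was at 93.5 CPM in 155 cells with exactly 2 and at 427 CPM in 164 with more than 20. In KO cells with 2, 3 to 5, 6 to 10, 11 to 20 and more than 20 Hspa1a UMIs, Dnajb1 was at 541, 457, 468, 593 and 1390.1 CPM, so the first 4 groups lay close together. In the same groups of WT cells it was at 294, 401, 588, 711 and 869 CPM, each above the one before. The 36 genes of the chaperone list other than Hspa1a and Hspa1b, with Dnajb1 and Hsp90aa1 among them, summed to 12889 and 19764 CPM in KO, and to 12566 and 17429.9 CPM in WT. Jun was at 1513 and 3303 CPM in KO, and at 872 and 2236 CPM in WT. WT cells with exactly 2 Hspa1a UMIs, which were deeper at a median of 5470 UMIs, had about as much Jun as the 884 CPM of WT cells with exactly 1. The group of KO cells with more than 20 holds 19 cells. With 11 to 20 Hspa1a UMIs, 37 KO cells had 321 CPM of Hspa1b and 2359.7 CPM of Jun.

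**Figure D3:**
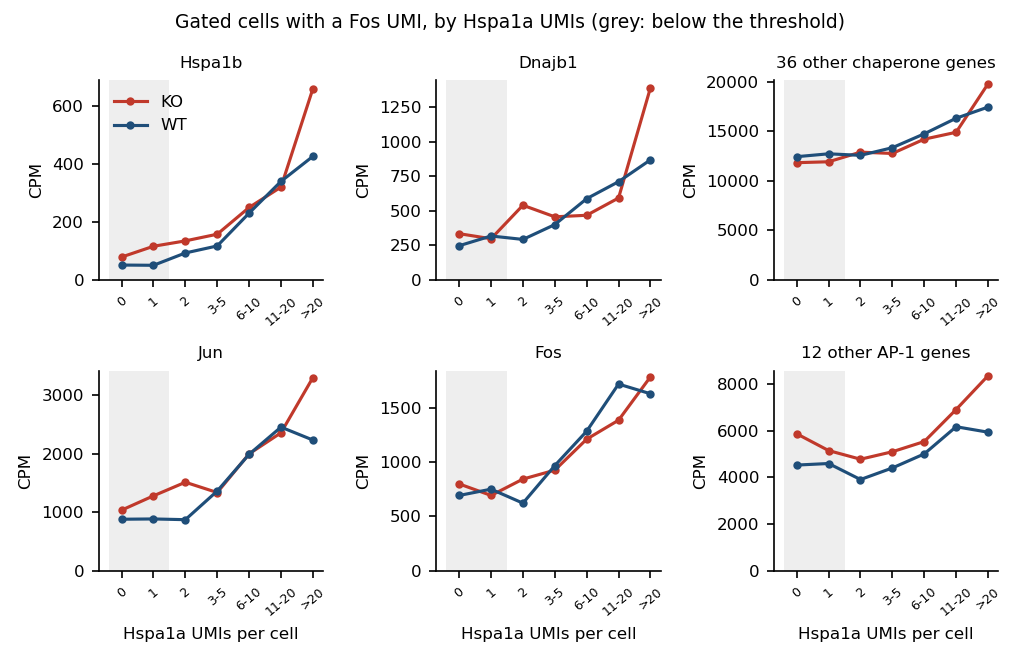
CPM (y axes) of Hspa1b, Dnajb1, the 36 chaperone genes other than Hspa1a and Hspa1b summed (Dnajb1 included), Jun, Fos and the 12 AP-1 genes other than Fos summed (Jun included), in cells with Fos that met every exclusion, grouped by Hspa1a UMIs per cell (x axes) in the KO and WT libraries. Grey marks cells below the Hspa1a limit, and in both libraries Hspa1b is higher in cells with more than 20 Hspa1a UMIs (661 CPM in KO and 427 CPM in WT) than in cells with 2.

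At equal depth, Fos was detected more often in cells at the Hspa1a limit than in cells below it. When each cell was thinned at random to 2500 UMIs and the exclusions were applied to the thinned counts, Fos was detected in 59.3% of 214 KO cells with at least 2 Hspa1a UMIs and in 37.5% of 1111 below that. In WT it was detected in 79.3% of 817 such cells and in 49.4% of 1966 below. Without thinning the shares were 70.0% and 44.1% in KO, and 85.1% and 63.2% in WT. Thinning left out 418 KO and 92 WT cells with fewer UMIs. Over 152 KO and 743 WT members deep enough to thin, Spearman's rank correlation between Hspa1a and Fos was 0.27 in KO and 0.43 in WT. It was 0.35 and 0.44 between Hspa1a and the sum of the 36 chaperone genes, and 0.28 and 0.47 between Fos and Jun. Hspa1a and Fos chose the members, so these values are a description and no added support for a joint state. The cells share a library, and the correlations were taken within the limits of the rule.

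Members had more members among their nearest cells than other cells had, also without the genes of the rule. Cells that met the exclusions were placed by 20 principal components of 1000 variable genes after thinning, and the 15 nearest cells of each were counted. Without the rule genes and every gene of the chaperone, AP-1, immediate early and dissociation lists, 24.4% of the neighbours of KO members were members, against 16.8% of the neighbours of other KO cells. In WT the shares were 45.2% and 29.3%. With all genes they were 37.7% and 11.1% in KO, and 59.3% and 20.04% in WT. Members were 16.8% of the KO cells and 33.8% of the WT cells so placed. Without the listed genes, most neighbours of members were not members. Genes on none of those lists that go with the rule genes could remain, and their part was not tested.

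Members carried NK markers at the level of other cells. The 12 NK markers summed to 26204 CPM in members and 27020.4 CPM in other cells of the KO library, and to 25206 and 25064 CPM in the WT library. Ncr1, which encodes NKp46, had ratios of 0.081 in KO and 0.11 in WT. Ifng had ratios of 0.61 (0.45 to 0.78) in KO and 0.47 (0.37 to 0.57) in WT, and the chemokine gene Ccl3 of 0.69 (0.59 to 0.78) in KO and 0.44 (0.39 to 0.50) in WT. Of the NK receptor list 0 of 23 genes measured in KO and 1 of 26 in WT were 1.5-fold higher. Cytotoxic effector genes gave different counts in the libraries, with 0 of 17 higher and 6 lower in KO, and 4 of 17 higher and 0 lower in WT, and the difference was not tested. Of all measured genes, 2.33% in KO and 1.16% in WT were that much higher, and 4.85% and 1.42% that much lower. The 4 higher in WT were the granzyme genes Gzmc at 1.32, Gzmd at 1.14, Gzme at 1.20 and Gzmf at 1.49, and 10 WT members held 86.4%, 88.6% and 93.8% of the UMIs of the last 3. Without the 3% of cells with most UMIs those 3 were at -0.96, -1.04 and -0.30 in WT. Genes of S phase and mitosis had medians of 0.32 in KO and 0.40 in WT, with 1 of 13 and 7 of 24 1.5-fold higher. The proliferation marker Mki67 was detected in few cells. After thinning it was found in 1.32% (0.16% to 4.67%) of 152 KO members and 0.133% (0.0034% to 0.74%) of 751 other KO cells. In WT it was found in 2.69% (1.65% to 4.13%) of 743 members and 1.65% (1.06% to 2.44%) of 1455 other cells. Before thinning the shares were 1.63% and 1.13% in KO, and 5.61% and 3.06% in WT.

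Several defining markers of other cell types were at 0 in members, while other genes of their lists were detected. Cd4, Cd8a and Cd8b1 of the T cell list, Csf1r and Adgre1 of the myeloid list, Flt3, Xcr1 and Siglech of the dendritic list, and Col1a1, Col3a1, Dcn, Sparc and Cdh5 of the stromal list had 0 UMIs in the members of both libraries. The T cell list, whose Cd3d and Cd3e the rule limits, summed to 28.0 CPM in members and 38.6 CPM in other cells in KO, and to 56.4 and 62.8 CPM in WT. The 9 myeloid markers summed to 283 and 302 CPM in KO, and to 279.7 and 265 CPM in WT. A UMI of at least 1 of the 9 was found in 65.8% and 58.5% of those cells in KO, and in 70.9% and 66.4% in WT. The dendritic list summed to 23.8 CPM in members against 191 CPM in other cells in KO, and to 84.8 against 72.8 CPM in WT, with a UMI in 7.07% of KO and 17.2% of WT members. The stromal list, from 1 detected gene in members, summed to 67.3 and 62.0 CPM in KO and 62.4 and 57.9 CPM in WT, with a UMI in 21.2% of KO and 23.9% of WT members. The basophil or mast cell list summed to 19.6 and 27.8 CPM in KO and 47.4 and 38.9 CPM in WT. The B cell list summed to 1.40 CPM in members against 18.1 CPM in other cells in KO, and to 2.77 against 2.09 CPM in WT, and the neutrophil list to 2.80 CPM in members against 68.2 CPM in other cells in KO, and to 0 against 0.279 CPM in WT. The part of these cell types in the ratios was not tested. The ILC list, whose Tmem176a and Tmem176b are at 0 by the rule, summed to 89.7 CPM in members against 49.4 CPM in other KO cells, and to 27.0 against 39.5 CPM in WT. Erythroid genes, which NK cells are not known to make and which can enter droplets as free RNA, had a UMI in 65.2% of KO and 49.9% of WT members, against 65.1% and 42.9% of other cells. They summed to 301 CPM in members against 312 CPM in other cells in KO, and to 948 against 1259 CPM in WT. The source of these UMIs was not tested.

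Many genes of these cells are also known from tissue dissociation. Of 52 genes reported as induced by dissociation and outside the rule, 11 of 46 measured in KO were 1.5-fold higher in members and 4 lower, and 12 of 50 in WT were higher and 2 lower. Of all measured genes, 2.33% in KO and 1.16% in WT were that much higher, and 4.85% and 1.42% that much lower. Of the 52, 36 are also in the chaperone, AP-1, immediate early, NF-κB or metallothionein lists. Of the other 16, among them Actg1, Hspa5, Odc1 and Sqstm1, 14 were measured in KO and 15 in WT, and 0 were 1.5-fold higher in either library. The part of sample handling in the member state was not tested.

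Members were a smaller share of the KO library than of the WT library. They made up 6.0% (5.18% to 6.90%) of KO cells and 21.5% (20.2% to 22.9%) of WT cells. The Nr4a1 exclusion set aside 1615 KO and 494 WT cells, and among cells that met every exclusion the shares were 15.9% (13.9% to 18.2%) in KO and 33.7% (31.8% to 35.7%) in WT. With the whole rule applied after thinning to 2500 UMIs, members were 4.79% of 2649 KO cells and 18.7% of 3463 WT cells. Without the Nr4a1 exclusion they were 7.86% in KO and 23.8% in WT, so the KO share was the lower one each way. Summed over members and other cells, Hspa1a was at 555 CPM in KO and 976 CPM in WT, a log2 ratio of KO over WT of -0.81 (-0.88 to -0.75). Fos was at 449 CPM in KO and 721 CPM in WT, a ratio of -0.68 (-0.75 to -0.61). Jun, Dnajb1 and Hsp90aa1 had ratios of -0.18 (-0.23 to -0.13), -0.15 (-0.24 to -0.063) and 0.024 (-0.034 to 0.080). Of the other 6 genes so summed, Hspb1 was at -1.81 (-2.60 to -1.40), Gm26802 at -1.20 (-1.42 to -1.02), Fosb at -0.68 (-0.81 to -0.55), Klf6 at -0.38 (-0.46 to -0.31), Hsph1 at -0.32 (-0.62 to -0.047) and Hspa1b at -0.27 (-0.43 to -0.12). Over all kept cells, excluded classes included, the ratio was -1.36 (-1.41 to -1.31) for Hspa1a, -1.08 (-1.21 to -0.97) for Hspa1b, -0.87 (-0.92 to -0.82) for Fos, -0.38 (-0.42 to -0.35) for Jun, -0.23 (-0.28 to -0.17) for Dnajb1 and -0.16 (-0.20 to -0.13) for Hsp90aa1. Genotype, mouse, tumor and library preparation cannot be told apart in these differences.

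The share of cells at both UMI limits was lower in KO in the excluded classes too. After thinning it was 2.53% of 1105 KO and 9.34% of 182 WT cells with 3 or more of the Nr4a1 set. It was 21.9% of 169 KO and 36.5% of 282 WT cells with 2 or more of Cx3cr1, S1pr5 and Zeb2, and 9.01% of 111 KO and 27.7% of 130 WT cells with Tmem176 UMIs. Cells with Cd3 UMIs gave 17.2% of 64 in KO and 39.7% of 126 in WT. The intervals of these shares cover counting error within each library only and take cells as independent. The differences between KO and WT in the 4 classes are therefore a description and no test of genotype. Without thinning, the shares in KO and WT were 5.33% and 24.9% in the Nr4a1 class, 20.95% and 46.4% in the Cx3cr1 class, 12.7% and 40.1% in the Tmem176 class, and 15.96% and 52.3% in the Cd3 class. Any Hspa1a UMI was found after thinning in 13.8% of KO and 37.9% of WT cells of the Nr4a1 class, the lowest of the classes in each library, and without thinning in 22.04% and 57.9%. No class is known to lack Hspa1a, so the level of free Hspa1a RNA in droplets could not be measured, and its part in the difference was not tested.

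**Figure D4:**
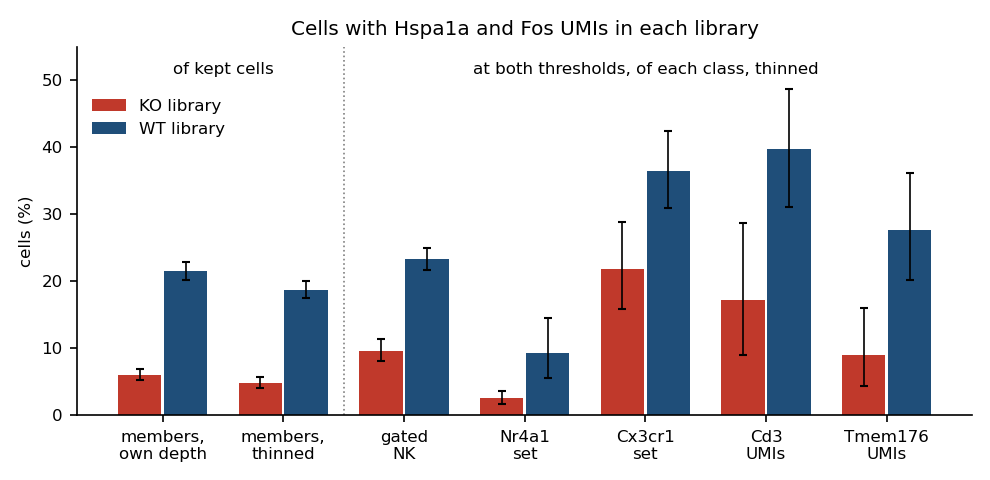
Percent of cells (y axis) in the KO and WT libraries with exact binomial 95% intervals, for members among kept cells at their own depth and after thinning (left) and for cells at both UMI limits after thinning in cells that met every exclusion and in the 4 excluded classes (right). The KO bar is the lower one in every pair, for example 6.0% against 21.5% for members.

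Cells at both UMI limits that a single exclusion set aside differed from members in other genes. The 57 KO and 80 WT cells set aside by the Nr4a1 limit alone had 1401 CPM of Hspa1a in KO and 994 CPM in WT, where members had 2501 and 2295 CPM. Their Vegfa was at 258 and 83.0 CPM, where members had 42.1 and 30.7 CPM. The 48 KO and 227 WT cells set aside as mature alone had 3110.3 and 2555 CPM of Hspa1a and 1902 and 1852 CPM of Jun. Their Ncr1 was at 1054 and 706 CPM, where members had 450.1 and 415 CPM.

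Within the members, Hspa1b, Dnajb1, Jun and Klf6 had ratios of KO over WT close to 0, while Hspb1, Atf3, Mt1 and Fosl2 differed more. The granzyme genes Gzmc to Gzmg, given below, differed by more than these. Hif1a, the deleted gene, was at 57.5 CPM in KO members and 52.5 CPM in WT members, a log2 ratio of KO over WT of 0.13 (-0.39 to 0.62). A 3′ tag outside the deleted part checks nothing about the deletion. Hspa1b was at 258 CPM in KO and 241 CPM in WT members, a ratio of 0.10 (-0.13 to 0.33). Dnajb1 had a ratio of 0.068 (-0.084 to 0.22), Jun of 0.12 (0.040 to 0.21) and Klf6 of -0.035 (-0.18 to 0.11). Hspa1a at 0.12 and Fos at -0.093 are set in part by the rule. The chaperone list had a median of -0.094 in members and -0.075 in other cells, beside 0.068 over all genes in members. Fosl2 was higher in KO members by 1.08 (0.78 to 1.39), and by 0.86 in other cells. Hspb1 was lower, at -1.78 (-3.01 to -0.90), and at -1.02 in other cells.

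Of 7012 genes with at least 50 UMIs over the members of both libraries, 108 were at least 2-fold higher in KO members (1.54%) and 171 at least 2-fold lower (2.44%). In other cells 42 of the same genes were that much higher (0.599%) and 45 lower (0.642%). The sums behind these are 713209 UMIs in KO and 4326496 in WT members, and 3707047 and 7170984 in other cells. Of the 108, 102 were above 0 in other cells too, and of the 171, 124 were below 0 there. Over all measured genes outside the rule, 4226 of 7003 were above 0 in other cells. Only 23 of the 108 and 33 of the 171 were also at least 2-fold in other cells. Glycolysis genes, known HIF-1 targets, had a median of -0.50 in members and -0.47 in other cells. Of 15 measured, 5 were 1.5-fold lower in KO members, where 6.9% of all genes were, and 5 in other cells, where 2.12% were. Gapdh, for example, was at 557 CPM in KO and 941 CPM in WT members. S phase and mitosis genes had a median of -0.54 in members and -0.56 in other cells, with 13 and 12 of 26 1.5-fold lower in KO. Both lists differed between the libraries by about the same in members and in other cells.

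**Figure D5:**
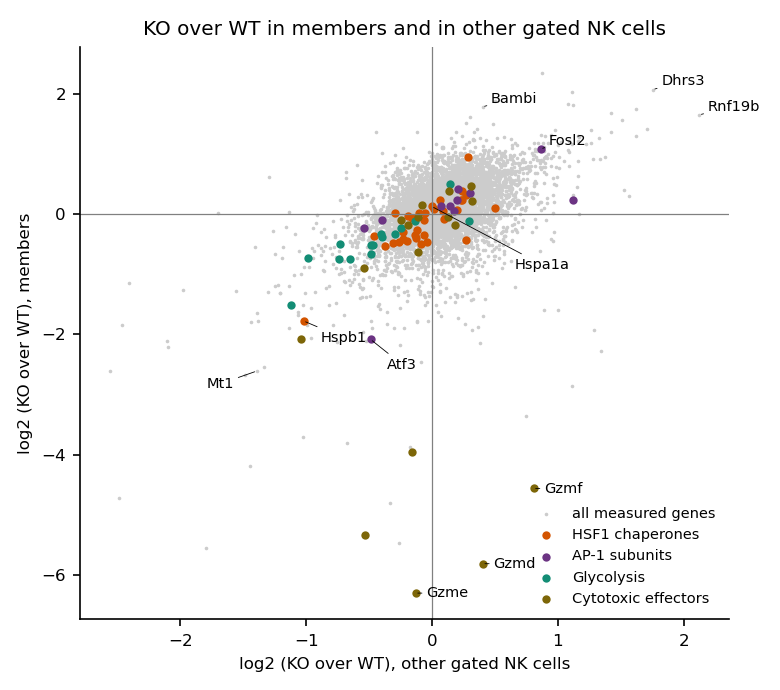
Each point is 1 of 7012 genes, placed by its log2 ratio of KO over WT in other cells (x axis) and in members (y axis), with 4 gene lists in colour. Dhrs3 at 1.76 and 2.07 lies high on both axes and Hspb1 at -1.02 and -1.78 low on both.

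By the naming rule the 8 highest genes of KO over WT members were Dhrs3, Rab27b, Ramp1, Tll1, Bambi, Slx1b, Mid1 and Rnf19b. Dhrs3, a retinaldehyde reductase, was at 111 CPM in KO and 25.7 CPM in WT members, a ratio of 2.07 (1.68 to 2.54), and 1.76 in other cells. Rnf19b, an E3 ubiquitin ligase of NK cells, was at 44.9 and 13.6 CPM, a ratio of 1.65 (1.05 to 2.36), and 2.13 in other cells. Bambi, a TGF-β pseudoreceptor, had a ratio of 1.78 in members and 0.40 in other cells, and 10 cells held 86.8% of its UMIs in KO members.

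Under the same rule the 8 lowest were Tma16, Adam8, Cd55, Atf3, Gzmk, Rom1, Sco2 and Slc7a5, with between 0 and 8 UMIs each in all KO members. Tma16 had 0 UMIs in KO members, where 3 UMIs would be 4.21 CPM, and 12.02 CPM in WT members, so it was at least 2.86-fold lower. Havcr2 of the NK receptor list, not among the 8, had 0 UMIs in KO and 27.0 CPM in WT members. By the same floor it was at least 6.43-fold lower, and its ratio was -0.33 in other cells. Gzmk, a granzyme, was at 11.2 CPM in KO and 50.6 CPM in WT members, a ratio of -2.08 (-3.40 to -1.17), and -1.04 in other cells. Atf3 had a ratio of -2.09 (-3.41 to -1.18) in members and -0.49 in other cells. The metallothionein gene Mt1 had 12 UMIs in KO members, 16.8 CPM against 108 CPM in WT members, a ratio of -2.61 (-3.64 to -1.86), and -1.39 in other cells. In WT members 10 cells held 65.3% of its UMIs.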

How the data were processed

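The values are raw UMI counts, whole numbers for each gene in each barcode, as the authors deposited them, for 1 KO and 1 WT library, without normalization; per the submitters' processing notes Cell Ranger 2.0.2, Seurat and mm10 were used, in roles not given there. Barcodes under 500 genes or over 10% mitochondrial UMIs were left out; doublets were not removed. Counts were summed over cells and scaled to CPM, and 1 CPM was added before log2 ratios. Intervals are exact (binomial for shares, conditional binomial for ratios) and cover counting error only. Genes needed at least 100 UMIs over members and other cells, or 50 over the members of both libraries. No test was made, as each genotype has 1 library. Thinning drew 2500 UMIs per cell. Genes were named by a rule on their ratios. It took the markers, and up to 12 highest and 8 lowest among genes at least 1.5-fold the same way in both libraries. Only 10 higher genes qualified. The rule also took the 8 highest and 8 lowest of KO over WT members, and up to 4 genes a list. For KO over WT, genes held mostly by 10 cells over the members of both libraries together were left out of those 8. Other genes named come from the lists and were chosen with their values known. The members and lists were chosen with earlier results of these data known. Positions are from GENCODE M21, and promoter windows from RefSeq. Python 3.11.15, numpy 2.4.6 and scipy 1.17.1 were used. The ratio and interval steps were tested on sums per gene simulated with counting error alone. Those sums held no differences between cells, so they cannot check the independence that the intervals assume. Alternatives changed the UMI limits, the exclusions, the other cells, cell weights, the added CPM, the UMI minimum and the cells left out.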

Additional observations from a re-analysis of the deposited data

Results flagged for a closer look

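Only genes named by the rule above were searched for opposite directions in the libraries, at 1.5-fold or more in members over other cells. Among those, 4 were found, and the difference between the libraries was not tested. Gzmd had log2 ratios of -5.07 in KO and 1.14 in WT, Gzme of -4.97 and 1.20, and Gzmf of -3.88 and 1.49. KO members held 4, 1 and 15 UMIs of these 3 granzyme genes, and in WT members 10 cells held 86.4%, 88.6% and 93.8% of the UMIs. Cd55, which encodes a complement regulator, had ratios of -1.20 in KO, on 8 UMIs in members, and 0.73 in WT, where 10 members held 44.7%. Gzmc, which the naming rule did not take, also went opposite ways. Its ratios were -2.48 (-2.89 to -2.12) in KO, on 60 UMIs in members, and 1.32 (1.27 to 1.39) in WT.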

How the results depend on the processing

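No paired analysis was possible because each genotype has 1 library. The share of members in KO and WT was 4.63% and 18.1% with at least 2 Fos UMIs, 8.71% and 30.6% with at least 1 and 5.09% and 17.2% with at least 3 Hspa1a UMIs, 7.27% and 23.5% with Hspa1a and Hspa1b added, 7.86% and 23.8% without the Nr4a1 limit and 4.79% and 18.7% after thinning. KO was lower in each. With at least 20 UMIs, 289 genes were 2-fold higher and 387 lower in KO members. With at least 200 UMIs the counts were 19 and 38, and with 10 CPM added 28 and 54. They were 40 and 25 without cells with 3 or more S and G2M genes, called without S and G2M cells below. That choice left out most cells of each library, and whether those were dividing was not tested. It kept 989 of 3067 KO and 812 of 3555 WT cells, with 68 KO and 166 WT members. The UMI minimum and the cells used also change how many genes are counted, and shares of genes are not given for the alternatives. The 3 genes lower in members in both libraries became 22 against every other kept cell, 1 with depth weights, 7 with equal cell weights, 0 in cells with none of the Nr4a1 set (an alternative chosen after seeing the data), 0 with 10 CPM added and 7 without S and G2M cells. The KO median of AP-1 genes was -0.49, 0.57 and 0.34 against every other kept cell, with none of the Nr4a1 set and without S and G2M cells, and that of NF-κB genes -1.04 against every other kept cell. Of ratios of at least 1.5-fold that met the UMI minimum in members over other cells, these changed sign. Against every other kept cell, Ccl3 was at -0.15 and Ifng at -0.40 in KO. With none of the Nr4a1 set, Nfkbia was at 0.14, Pim1 at 0.14 and Zc3h12a at 0.075 in KO, and Cd83 at 0.74, Gzmd at -0.89 and Gzme at -0.00088 in WT. Smaller ratios, or ratios under the UMI minimum, changed sign there too, with Junb at 0.23 in KO and 0.085 in WT, and Atf3 at 0.41, Btg1 at 0.19, Gadd45g at -0.79, Hspa8 at -0.12 and Ncr1 at -0.23 in KO among them. Without cells with 10 or more Gzmc to Gzmg UMIs, also chosen after seeing the data, Gzmf was at 0.11 in KO, and Gzmd at -0.044, Gzme at -0.079 and Gzmf at -0.12 in WT. Without S and G2M cells, WT values were -0.20 for Cd55, -2.46 for Gzmd, -2.83 for Gzme and -1.42 for Gzmf, and without the 3% deepest cells -0.96 for Gzmd, -1.04 for Gzme and -0.30 for Gzmf. For KO over WT members, of ratios of at least 1.5-fold, Mt2 was at 0.20 and Rom1 at 0.91 without S and G2M cells, and Sco2 at 0.057 after thinning. The cause of these changes was not tested. Depth limits the KO members most, whose 184 cells held 713209 UMIs.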
